A study of Mus musculus with 9 samples.

Results

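The genes described here encode the machinery that copies DNA and the regulators that carry a cell over the border between G1 and S phase. The list held 34 mouse genes given by symbol, chosen by function with earlier results of these data known. Of these, 32 had annotated transcripts in the deposited tables, out of 35930 genes with a value. Cdt1 and Gins2 were not analysed here. Rfc4 and Rfc5 were listed at 0 in all 9 libraries, which left 30 genes among the 13333 tested.

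RNA of whole uterus was sequenced from immature C57BL/6 female mice that had all been primed with hormones for 3 days, with a single dose of 1 mg progesterone and 10 mg/kg of β-estradiol per day. The horns then received 50 µl of pooled medium from 18 human embryos that arrested in culture (arrested, 3 libraries), pooled medium from 9 developmentally competent human embryos (competent, 3 libraries), or embryo culture medium that had held no embryo (control, 3 libraries). The mice were 25 days old by the labels but 21 days old by the design text. The time from injection to collection is not given in the sources used here. Each conditioned medium was a single pool, and no label says whether each library stands for an animal of its own. The p-values therefore measure the spread between these samples only, which may be technical. All levels are FPKM (fragments counted per unit of transcript length and of sequencing depth), summed over the annotated transcripts of a gene.

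Replication starts when the origin recognition complex, CDC6 and CDT1 load the MCM2-7 helicase onto DNA in G1. Cyclin E with CDK2, and the E2F factors released from the retinoblastoma protein, then start S phase, in which the helicase is activated, polymerases copy the strands around the PCNA clamp, and ribonucleotide reductase and thymidylate synthase provide deoxynucleotides. In the mouse uterus estradiol drives epithelial cells through this cycle and progesterone restrains that proliferation, so these transcripts are commonly read as a measure of dividing cells. In whole tissue, fewer cycling cells and less RNA per cycling cell cannot be told apart.

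Many of these genes are known E2F targets, and their promoters are shown because the levels of the genes ran side by side across the libraries. RefSeq promoters (GRCm38.p6, 250 bases before to 50 after the start) were found for 27 of the 32 measured genes. The letters TTTCCCGC, TTTCGCGC, TTTGGCGC or TTTGCCGC, forms of the E2F element on either strand, were present in 11 of the 27 (40.7%), against 704 of 27025 genes with a promoter in the table (2.605%). The 11 were Mcm3, Mcm5, Mcm6, Mcm7, Cdc6, Pola1, Pold1, Rfc3, Lig1, Uhrf1 and Dnmt1. The letters CCAAT were in 16 of the 27 (59.3%), against 41.1% of all genes. The 180 bases before the start of 4 genes with E2F letters and of Rrm2, which has none of them, read as follows, 5′ to 3′ along the gene, with E2F letters in capitals in the first 4 and CCAAT in capitals in Rrm2.
Mcm5, chr8:75109329-75109508, plus strand: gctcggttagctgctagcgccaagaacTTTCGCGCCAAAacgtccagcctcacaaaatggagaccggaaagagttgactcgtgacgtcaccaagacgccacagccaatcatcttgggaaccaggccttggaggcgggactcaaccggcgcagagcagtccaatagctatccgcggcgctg
Mcm6, chr1:128359706-128359885, minus strand: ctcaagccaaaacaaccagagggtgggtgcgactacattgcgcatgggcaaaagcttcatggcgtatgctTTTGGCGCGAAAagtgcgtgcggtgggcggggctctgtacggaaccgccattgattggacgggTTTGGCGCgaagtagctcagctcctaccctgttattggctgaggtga
Pola1, chrX:93632156-93632335, minus strand: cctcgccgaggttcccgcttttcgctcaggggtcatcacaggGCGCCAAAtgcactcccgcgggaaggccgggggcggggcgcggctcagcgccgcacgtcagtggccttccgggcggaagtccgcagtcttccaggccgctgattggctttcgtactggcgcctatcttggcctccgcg
Cdc6, chr11:98907971-98908150, plus strand: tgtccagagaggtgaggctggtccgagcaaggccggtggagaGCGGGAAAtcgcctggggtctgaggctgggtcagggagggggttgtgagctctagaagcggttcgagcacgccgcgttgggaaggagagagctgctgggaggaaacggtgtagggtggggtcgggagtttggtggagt
Rrm2, chr12:24708074-24708253, plus strand: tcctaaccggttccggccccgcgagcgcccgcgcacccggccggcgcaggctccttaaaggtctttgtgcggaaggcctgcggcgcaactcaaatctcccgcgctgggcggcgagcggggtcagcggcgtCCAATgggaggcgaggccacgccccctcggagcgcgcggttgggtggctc
In Mcm5 and Mcm6 a forward and a reverse E2F match overlap, so that a single run of capitals holds both, and Mcm6 has a further match nearer the start. These matches are letters in a window and not measured binding.

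Transcripts of the list were highest after competent embryo medium. In 17 of the 30 tested genes every competent library lay above every arrested and every control library, which held for 2.87% of all genes tested, and in 28 of the 30 the highest library was a competent one, Prim1 and Pold1 being the exceptions. Ccne1 and Ccne2, which are among the 17, reached the filter on the mean level largely through their competent libraries. No single gene passed the threshold of 0.05 after adjustment over all genes (limma, Benjamini-Hochberg), where 12 genes in all passed the test over the 3 groups (0.09%). The lowest adjusted p of a member in that test was 0.451, for Rrm2 and H2afx. Unadjusted, 12 of the 30 had p under 0.05, against 7.66% of all genes.

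**Figure D1:**
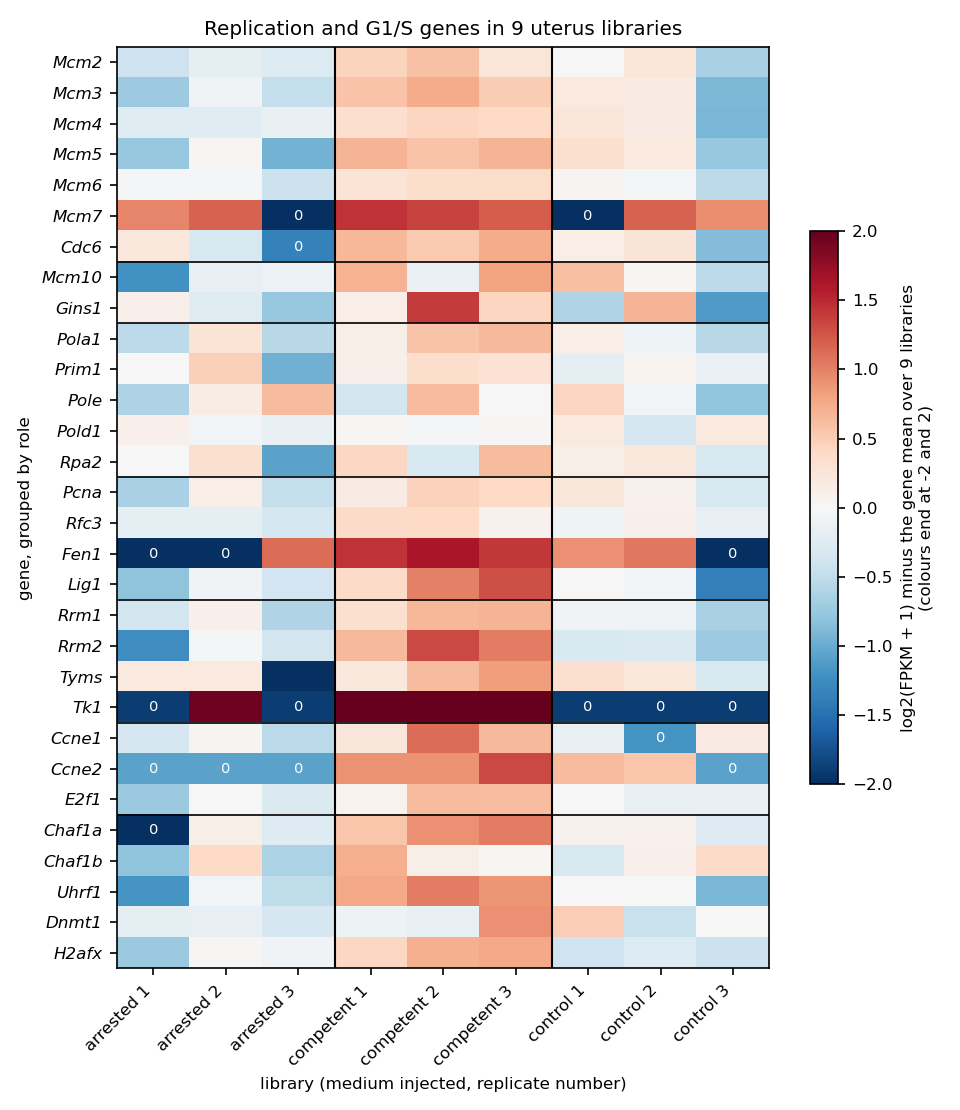
Level of the 30 tested genes in each library as log2(FPKM + 1) minus the mean of the gene over the 9 libraries, with genes in rows by role and libraries in columns; a 0 marks a value listed at 0, and horizontal lines separate the roles. The 3 competent libraries are red for most genes, and arrested libraries 1 and 3 and control library 3 are mostly blue.

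Arrested against competent embryo medium gave the widest separation. All 30 genes had a lower mean log2(FPKM + 1) after arrested embryo medium, as did 50.9% of all genes tested, with a median difference of -0.91 against -0.01 for all genes tested. In 23 of the 30 every arrested library lay below every competent library, against 8.75% of all genes, and 17 of the 30 had an unadjusted p under 0.05 in this direction, against 5.61% of all genes. The lowest adjusted p of a member was 0.250 (limma), while 18 genes outside the list passed the threshold (0.135% of those tested). Competent embryo medium against control ran the other way, with 29 of 30 genes higher after competent embryo medium (48.1% of all genes) and a median difference of 0.67 against -0.01 for all genes. Groups did not overlap for 18 of the 30 (6.72% of all genes), 11 had an unadjusted p under 0.05 (2.59% of all genes), and the lowest adjusted p was 0.687, with 5 genes outside the list past the threshold (0.0375%). The count of 11 was 6 without competent library 2 and 7 without control library 3, and the median was 0.42 without control library 3. Both comparisons use the same 3 competent libraries and are not independent.

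Arrested embryo medium and control were close. Of the 30 genes, 8 had a higher and 22 a lower mean after arrested embryo medium (46.9% and 52.7% of all genes), the median difference was -0.17 against -0.02 for all genes, and Rfc3 alone had groups that did not overlap, with arrested libraries lower (5.36% of all genes). Ccne2 alone had an unadjusted p under 0.05 (3.18% of all genes were lower at that level), and the lowest adjusted p of a member was 0.904 (limma), with 6 genes outside the list past the threshold (0.045%). The median was -0.38 without arrested library 2 and -0.09 without arrested library 3. The count of genes with an unadjusted p under 0.05 was 5 without control library 3, 3 without arrested library 2 and 0 without any single one of the other 7 libraries.

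Depth and the make-up of the tissue varied between libraries. Coverage times transcript length was 1635 to 1936 Mb in arrested, 1743 to 2471 Mb in competent and 1303 to 1766 Mb in control libraries; read counts are not given in the tables. Epithelial, stromal and smooth muscle markers were high in all 9 libraries. Smooth muscle markers summed to 868 to 2112 FPKM in arrested, 1363 to 2739 FPKM in competent and 1593 to 1671 FPKM in control libraries. Of these, 6 of 6 were lower for arrested minus competent and 6 of 6 higher for competent minus control. For arrested minus control 6 of 6 were lower as well (median -0.58). Stromal markers summed to 1355 to 2532, 1321 to 1991 and 1620 to 1841 FPKM in arrested, competent and control libraries. Epithelial markers summed to 1850.0 to 2675, 2148 to 2462 and 2013 to 2414 FPKM in arrested, competent and control libraries. Leukocyte markers summed to 37.3 to 57.0 FPKM in arrested, 61.5 to 70.2 FPKM in competent and 53.4 to 96.6 FPKM in control libraries. Single leukocyte markers did not all follow the sums. Of 5 tested, 3 were higher and 2 lower for arrested minus competent (median 0.20), and 1 was higher and 4 lower for competent minus control (median -0.32). Endothelium markers summed to 26.2 to 64.9 FPKM in arrested, 29.7 to 43.2 FPKM in competent and 43.6 to 45.6 FPKM in control libraries. Of these 5, 4 were higher for arrested minus competent (median 0.49) and 5 lower for competent minus control (median -0.38).

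Adipocyte markers summed to 1264 FPKM in arrested library 2, the arrested library with the highest replication genes, and to 1.38 to 156.7 FPKM in the other 8. Red cell markers summed to 1194 to 2788 FPKM in arrested, 429.5 to 2305 FPKM in competent and 557 to 894 FPKM in control libraries. Of 4 ovary and oviduct markers Cyp19a1 was at 0 in every library and Ovgp1 in all competent and control libraries. The part of tissue make-up and depth in the results was not tested. With a library left out, the median for arrested minus competent lay between -1.03 (without arrested library 2) and -0.71 (without arrested library 3). The count of 17 genes with an unadjusted p under 0.05 lay between 12, without competent library 2 or 3, and 19, without arrested library 2 or without control library 2 or 3.

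**Figure D2:**
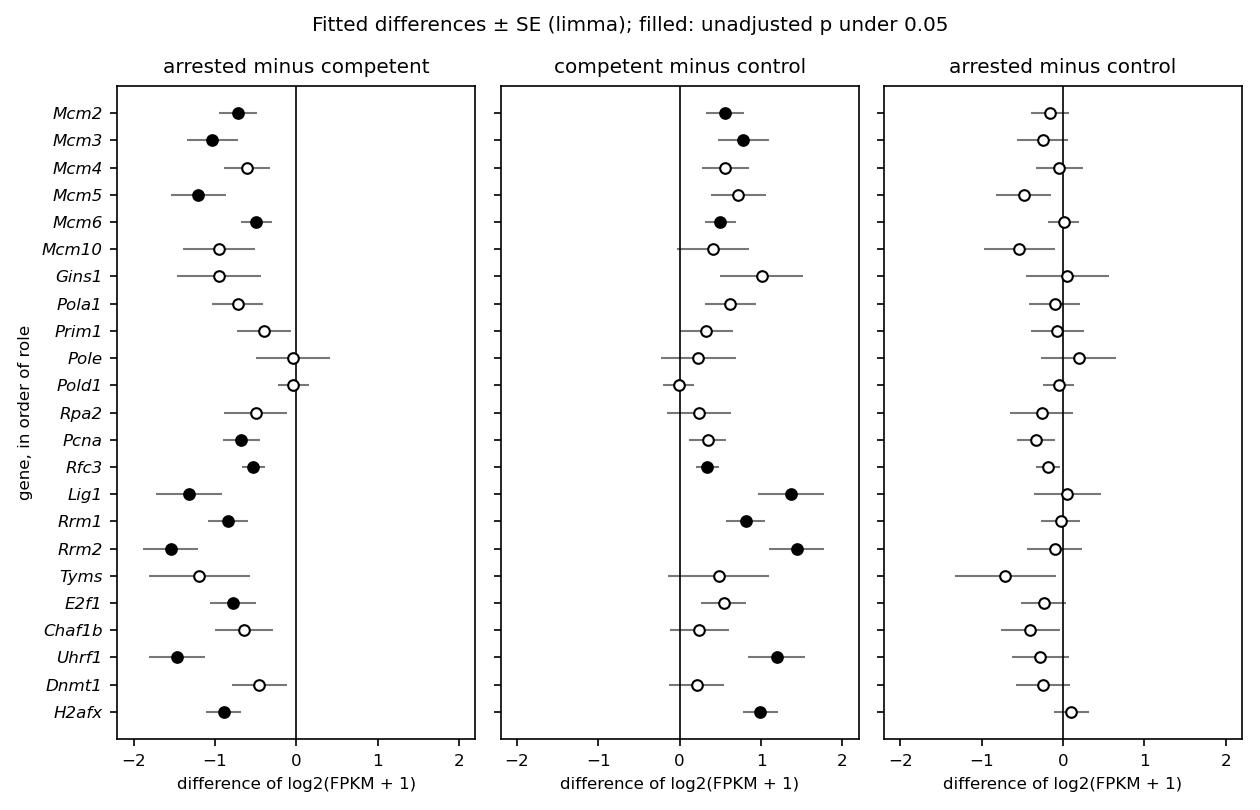
Fitted differences of log2(FPKM + 1) with their SE for the 23 genes without a value of 0, in 3 panels of the comparisons, with filled points at an unadjusted p under 0.05. All 23 points lie below 0 for arrested minus competent, 22 lie above 0 for competent minus control, and the points for arrested minus control scatter around a median of -0.16.

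The helicase and its loading factors were lower in arrested than in competent libraries without overlap in all 7 tested genes (8.75% of all genes), 5 of them with an unadjusted p under 0.05 (5.61% of all genes). Mcm5 (chromosome 8, bases 77633427 to 77652338, plus strand in NCBIM37), a core subunit of the helicase ring, stood at 7.63, 13.8 and 6.62 FPKM after arrested embryo medium, 22.3, 20.7 and 22.3 after competent embryo medium and 17.2, 15.7 and 7.65 in controls. The competent libraries lay within a narrow band and above all others, while arrested library 2 and control libraries 1 and 2 lay between them and the remaining libraries. The difference was -1.20 ± 0.34 for arrested minus competent (log2 FPKM + 1, SE, adjusted p 0.322) and 0.72 ± 0.34 for competent minus control (adjusted p 0.954, limma).

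Mcm3, another ring subunit, was at 7.72, 12.8 and 9.36 FPKM after arrested embryo medium, 20.4, 23.2 and 19.5 after competent embryo medium and 15.6, 15.3 and 6.77 in controls. Control libraries 1 and 2 lay above every arrested library and control library 3 below them all, and the differences were -1.03 ± 0.31 for arrested minus competent (adjusted p 0.358, limma) and 0.78 ± 0.31 for competent minus control (adjusted p 0.945). Mcm2, the subunit that also binds histones, had 13.4, 15.9 and 14.8 FPKM after arrested embryo medium, 25.2, 27.6 and 21.6 after competent embryo medium and 18.3, 21.8 and 11.2 in controls. All competent libraries were above all arrested ones, but control library 2, at 21.8 FPKM, was just above competent library 3. The remaining ring subunits Mcm4 and Mcm6 averaged 9.46 ± 0.400 and 24.04 ± 3.86 FPKM after arrested embryo medium (SD, n = 3). After competent embryo medium they averaged 14.9 ± 0.512 and 33.9 ± 1.19 FPKM, and in controls 10.4 ± 4.33 and 24.1 ± 5.14 FPKM.

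Mcm7, the last of the ring subunits, was listed at 0 in arrested library 3 and control library 1. Elsewhere it read 33.5 and 38.6 FPKM after arrested embryo medium, 46.9, 43.5 and 39.4 FPKM after competent embryo medium and 38.7 and 32.2 FPKM in controls. Cdc6, the loading factor, was low everywhere, at 1.95, 1.05 and 0 FPKM after arrested embryo medium, 3.03, 2.68 and 3.25 after competent embryo medium and 1.79, 2.04 and 0.398 in controls. Its competent libraries were again above the other 6.

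Among the genes that turn the loaded helicase on, Gins1 is a subunit of the GINS complex and Mcm10 helps start unwinding. Gins1 was at 7.10, 5.38 and 3.45 FPKM after arrested embryo medium, 7.29, 18.8 and 9.11 after competent embryo medium and 3.98, 11.04 and 2.42 in controls. Every arrested library lay below every competent one, competent library 1 by a small margin, and competent library 1 was also below control library 2, so that the competent and control groups overlapped. Mcm10 was at 0.572, 2.26 and 2.36 FPKM after arrested embryo medium, 4.86, 2.30 and 5.38 after competent embryo medium and 4.52, 2.73 and 1.54 in controls, with competent library 2 down among the arrested and control libraries. Neither reached an unadjusted p of 0.05 in any comparison on FPKM. On exon coverage, a second measure explained further on, Gins1 differed by 0.81 ± 0.29 for competent minus control (unadjusted p 0.024, limma). Mcm10 was below the filter on that measure. Its competent libraries read 1.30, 1.55 and 1.56 FPKM units there, above every other library, of which control library 1 was highest at 0.782.

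Polymerase genes had the smallest median differences of the 7 roles on FPKM for arrested minus competent and for competent minus control. None of the 5 tested genes had an unadjusted p under 0.05 in any comparison, with medians of -0.40 for arrested minus competent and 0.24 for competent minus control. Pola1, the catalytic subunit of the priming polymerase, was at 2.06, 4.31 and 1.99 FPKM after arrested embryo medium, 3.78, 5.55 and 5.94 after competent embryo medium and 3.84, 3.14 and 1.99 in controls. Arrested library 2 exceeded competent library 1. Prim1, the primase that lays the RNA primer, was at 11.8, 16.6 and 5.57 FPKM after arrested embryo medium, 12.6, 15.1 and 14.5 after competent embryo medium and 10.1, 12.3 and 10.6 in controls, and its highest and lowest libraries were both arrested ones. Rpa2, part of the single-strand binding protein RPA, was at 19.9, 25.1 and 9.03 FPKM after arrested embryo medium, 27.1, 15.9 and 31.5 after competent embryo medium and 21.8, 23.4 and 15.9 in controls, and all 3 groups overlapped. Its value rests largely on a transcript of 367 bases that carried 56.7% of its FPKM, and with that transcript alone the competent minus control difference was -0.94. On exon coverage that difference was 0.53 ± 0.20 (unadjusted p 0.030, limma), with every competent library above every other library. The leading strand polymerase gene Pole and the lagging strand polymerase gene Pold1 differed least on FPKM, by -0.04 ± 0.46 and -0.04 ± 0.19 for arrested minus competent and by 0.23 ± 0.46 and -0.01 ± 0.19 for competent minus control. The 3 competent libraries of Pold1 read 7.38, 7.09 and 7.35 FPKM, within the range of the arrested and of the control libraries. On exon coverage, a second measure explained further on, the differences were larger: -0.61 ± 0.24 for Pole and -0.44 ± 0.16 for Pold1 for arrested minus competent (unadjusted p 0.031 and 0.027, limma), and 0.49 ± 0.24 and 0.17 ± 0.16 for competent minus control. Every competent library of Pole was then above every other library, while control library 2 of Pold1 still lay among the competent ones.

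The sliding clamp and the enzymes that finish lagging strand fragments followed the helicase. All 4 tested genes had an unadjusted p under 0.05 for arrested minus competent (5.61% of all genes were lower at that level), and their arrested and competent libraries did not overlap (8.75% of all genes). Pcna, the clamp itself, was the most abundant gene of the list, at 68.8, 119 and 77.6 FPKM after arrested embryo medium, 122, 149.7 and 143 after competent embryo medium and 127, 116 and 86.6 in controls. Competent library 1 was just below control library 1, so the competent and control groups overlapped by a small margin. Lig1, the ligase that seals the fragments (chromosome 7, bases 13862632 to 13896782, plus strand), was at 14.8, 25.3 and 20.3 FPKM after arrested embryo medium, 35.3, 54.8 and 66.4 after competent embryo medium and 26.8, 25.5 and 9.74 in controls. The lowest competent library was above all others, and the differences were -1.31 ± 0.41 for arrested minus competent (adjusted p 0.366, limma) and 1.37 ± 0.41 for competent minus control (adjusted p 0.871).

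Rfc3, a subunit of the clamp loader, varied little within groups and was at 16.1, 15.9 and 14.2 FPKM after arrested embryo medium, 24.1, 24.4 and 19.6 after competent embryo medium and 17.1, 19.8 and 16.1 in controls. Its lowest control library was just above its highest arrested one, and its highest control library was just above its lowest competent one. Fen1, the flap endonuclease, was listed at 0 in arrested libraries 1 and 2 and control library 3. It read 11.5 FPKM in arrested library 3, 14.7, 16.9 and 14.4 FPKM in the competent libraries and 9.91 and 11.01 FPKM in control libraries 1 and 2, so the competent libraries were highest also among the libraries with a value.

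Genes of deoxynucleotide synthesis included some of the smallest p-values of the list. Rrm2 (chromosome 12, bases 25393106 to 25399011, plus strand), the subunit of ribonucleotide reductase that is made in S phase, was at 1.54, 4.85 and 3.68 FPKM after arrested embryo medium, 8.38, 13.9 and 11.3 after competent embryo medium and 3.86, 3.90 and 2.62 in controls. The lowest competent library was well above the highest of the other 6, and arrested and control libraries could not be told apart by their range. The differences were -1.54 ± 0.34 for arrested minus competent (adjusted p 0.250, limma) and 1.44 ± 0.34 for competent minus control (adjusted p 0.838). Rrm1, the large subunit of the same enzyme, showed the same order with smaller steps, at 12.9, 18.2 and 10.9 FPKM after arrested embryo medium, 21.4, 27.4 and 27.7 after competent embryo medium and 16.2, 16.2 and 10.4 in controls. Its differences were -0.84 ± 0.24 and 0.81 ± 0.24.

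Tk1, the thymidine kinase of the salvage pathway (chromosome 11, bases 117676840 to 117687406, minus strand), was listed at 0 in all 3 control libraries and in arrested libraries 1 and 3. It read 13.3 FPKM in arrested library 2 and 15.5, 21.7 and 24.5 FPKM in the competent libraries. A 0 in these tables can be a failed estimate, so no fold is given. Tyms, thymidylate synthase, averaged 17.5 ± 12.1, 32.3 ± 7.06 and 22.8 ± 5.06 FPKM after arrested embryo medium, after competent embryo medium and in controls (SD, n = 3 each), and arrested library 3 stood apart at 3.57 FPKM.

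The G1/S regulators were measured at only a few FPKM. Ccne2, 1 of the cyclin E genes, was listed at 0 in all arrested libraries and in control library 3. It read 2.94, 2.95 and 4.29 FPKM in the competent libraries and 2.27 and 2.09 FPKM in control libraries 1 and 2. Ccne1, the other cyclin E gene, was at 0.819, 1.38 and 0.575 FPKM after arrested embryo medium, 1.67, 3.94 and 2.59 after competent embryo medium and 1.07, 0 and 1.58 in controls, with every competent library above the rest. E2f1, an activating E2F factor, was at 0.965, 2.31 and 1.68 FPKM after arrested embryo medium, 2.44, 4.09 and 4.01 after competent embryo medium and 2.24, 1.96 and 1.96 in controls. Its competent libraries were highest as well, with differences of -0.78 ± 0.28 for arrested minus competent (adjusted p 0.397, limma) and 0.54 ± 0.28 for competent minus control (adjusted p 0.954).

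Genes that restore chromatin and DNA methylation behind the fork showed the pattern too. H2afx (chromosome 9, bases 44142798 to 44144154, plus strand), the histone variant marked at DNA breaks, was at 9.61, 16.98 and 15.7 FPKM after arrested embryo medium, 22.7, 27.9 and 28.8 after competent embryo medium and 12.5, 13.7 and 12.1 in controls. The 3 control libraries were nearly alike, the competent libraries were all above every other library, and arrested libraries spread from below to above the controls. Its differences were -0.89 ± 0.22 for arrested minus competent (adjusted p 0.260, limma) and 0.99 ± 0.22 for competent minus control (adjusted p 0.703). Uhrf1, which recognises hemimethylated DNA and brings in DNMT1, was at 2.61, 6.89 and 4.73 FPKM after arrested embryo medium, 12.8, 15.6 and 14.1 after competent embryo medium and 7.25, 7.11 and 3.34 in controls. Its lowest competent library was well above its highest control library, and the differences were -1.47 ± 0.35 (adjusted p 0.260, limma) and 1.19 ± 0.35 (adjusted p 0.871).

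Chaf1a, the large subunit of the histone chaperone CAF-1, was at 0, 4.19 and 3.01 FPKM after arrested embryo medium, 6.05, 8.08 and 8.71 after competent embryo medium and 4.08, 4.11 and 3.01 in controls. Arrested library 1 was listed at 0, and the competent libraries were above all others. Chaf1b, a further CAF-1 subunit, overlapped between arrested and competent libraries. Dnmt1, the maintenance methyltransferase, overlapped between competent and control libraries, while its highest arrested library was just below its lowest competent one. Chaf1b and Dnmt1 had differences of -0.64 ± 0.36 and -0.46 ± 0.34 for arrested minus competent and 0.24 ± 0.36 and 0.21 ± 0.34 for competent minus control.

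**Figure D3:**
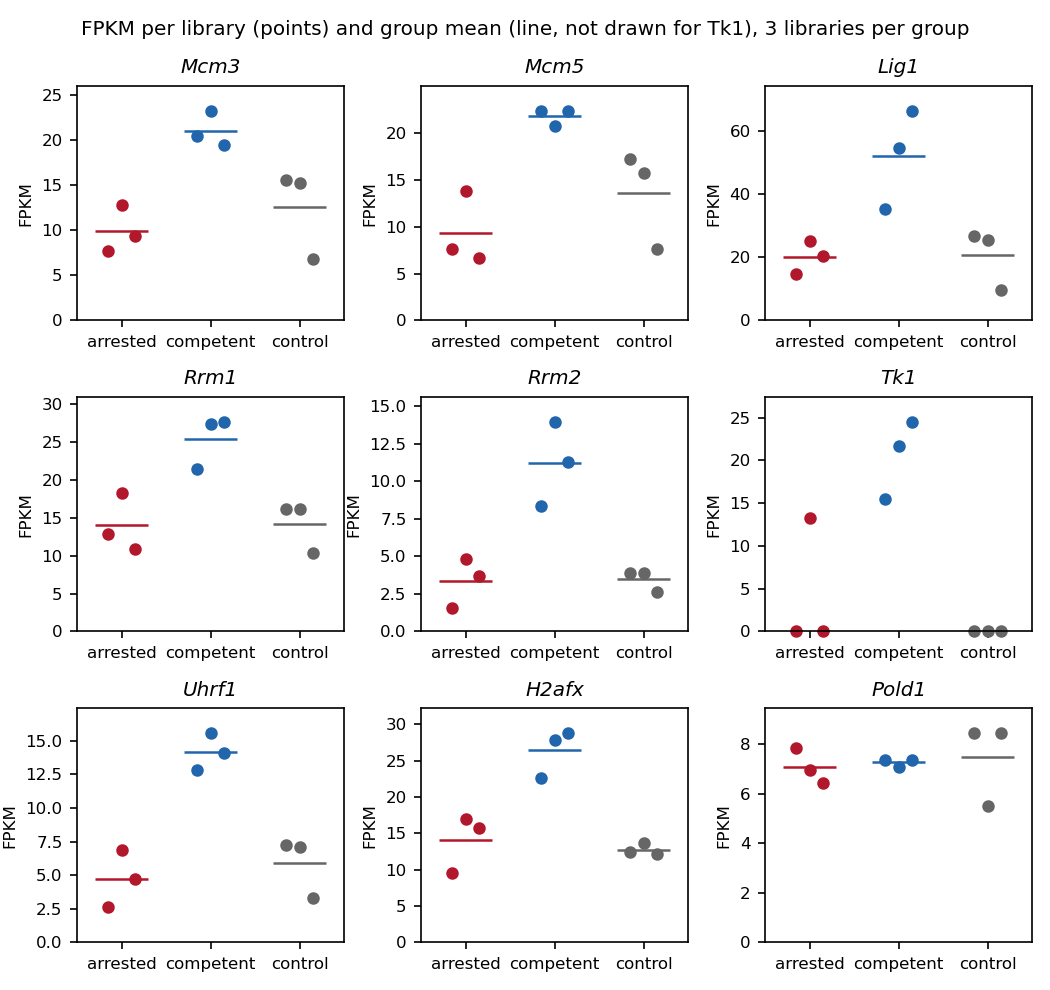
FPKM of 9 genes in each library (points) with the group mean of 3 libraries (line; none for Tk1, which has values of 0), for arrested, competent and control medium. Each gene shows the competent points above all others except Pold1, whose competent libraries lie inside the spread of the other groups.

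Values of 0 were set beside the read depth deposited for the exons. Of the 32 measured genes, 9 had a 0 in at least 1 library. Among the tested genes these were 17 values. For 13 of them at least 1 transcript of the gene carried a yes in an unnamed last field, and for none did all transcripts carry it. Counted per transcript, a yes was carried by 85.9 to 90.5% of those above 5 FPKM. It was carried by 17.2 to 21.3% of those above 0 and up to 1 FPKM, and by 25.0 to 29.7% of those listed at 0. All of these tested genes except Chaf1a have several annotated transcripts, so the 13 values cannot be set against shares counted per transcript. Summing depth over all transcripts, assembled ones included, on the exons of each gene gave a second measure that depends less on how reads were divided among transcripts. For Mcm2, Mcm3, Rrm1, Chaf1a and H2afx it equals the FPKM and is the same measurement. The depth is that deposited for the same and for assembled transcripts, so a 0 kept on this measure can still be a failed estimate. On that scale Mcm7 had no 0 and read 22.4, 25.9 and 15.5 FPKM units after arrested embryo medium, 31.4, 29.1 and 26.4 after competent embryo medium and 23.7, 25.9 and 21.6 in controls, and Cdc6 and Ccne1 had none either, while Tk1, Fen1, Ccne2 and Chaf1a kept their values of 0 and Rfc4 stayed at 0 throughout.

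Exon coverage separated the groups more often than FPKM. Of 30 genes tested on it, Rfc5 now among them and Mcm10 below the filter, 24 had every competent library above every other library, against 3.75% of all genes. All 30 were lower for arrested minus competent (median -0.73, 25 with an unadjusted p under 0.05, against 8.45% of all genes) and all 30 were higher for competent minus control (median 0.56, 19 with an unadjusted p under 0.05, against 2.87% of all genes). For arrested minus control 7 were higher and 23 lower (median -0.15, 1 with an unadjusted p under 0.05, lower, against 4.4% of all genes). Dnmt1, whose competent and control libraries overlapped on FPKM, read 6.62, 10.4 and 8.64 FPKM units after arrested embryo medium, 14.7, 14.03 and 15.4 after competent embryo medium and 11.3, 11.3 and 9.04 in controls, with every competent library above the other 6. No gene of the list passed the adjusted threshold on this measure either (limma).

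Libraries of a group were not alike. Over the 23 genes without a 0, the mean log2 deviation from the gene mean was -0.48, 0.02 and -0.50 in arrested libraries 1 to 3, 0.32, 0.52 and 0.54 in competent libraries 1 to 3 and 0.06, 0.02 and -0.51 in control libraries 1 to 3. Arrested library 2 thus stood level with control libraries 1 and 2, and control library 3 with the other 2 arrested libraries. Control library 3 was the lowest of the 9 for 9 of the 23 genes, arrested library 1 for 7 and arrested library 3 for 5. Competent libraries 2 and 3 were each the highest for 10 genes. The median SD of log2(FPKM + 1) within a group was 0.41 in arrested, 0.20 in competent and 0.35 in control libraries for these genes, against 0.36, 0.22 and 0.25 for all genes tested.

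**Figure D4:**
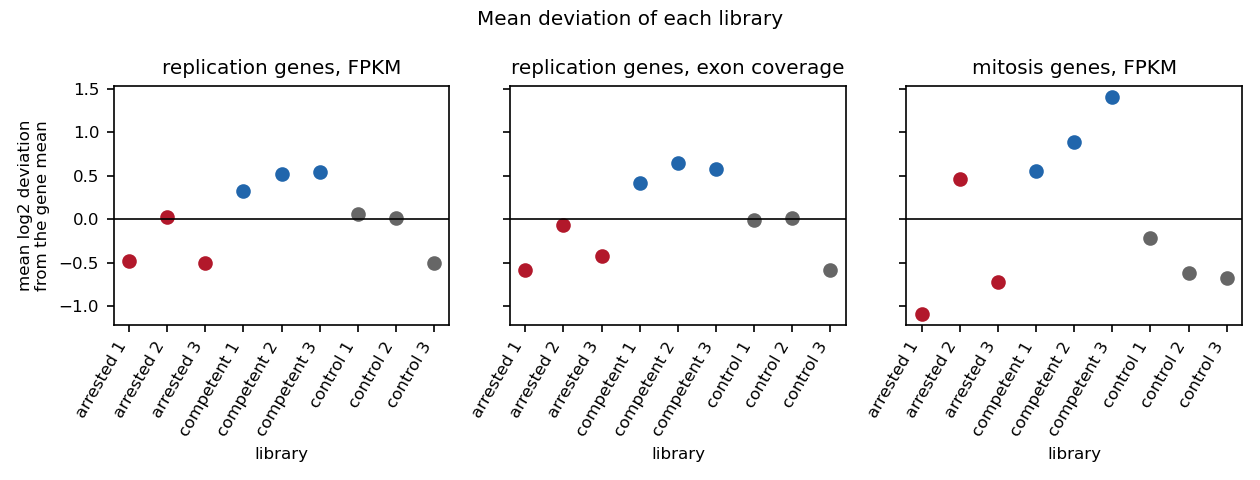
Mean deviation of each library from the gene mean on the log2 scale. The left panel holds the 23 replication genes without a 0 by FPKM. The middle panel holds the 30 replication genes tested on exon coverage, some with values of 0, and the right panel 25 mitosis genes by FPKM. The 3 competent libraries are highest in each panel; arrested library 2 lies near 0 for replication genes and at 0.47 for mitosis genes.

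Other genes of the same processes, 73 of them tested in 5 lists, lay mostly on the same side. For arrested minus competent 57 were lower and 16 higher, with a median of -0.30; 11 were lower and 2 higher at an unadjusted p under 0.05. Over all genes tested 50.9% were lower in that comparison, and 5.61% were lower and 5.31% higher at that level. For competent minus control 55 were higher and 18 lower, with a median of 0.19 and 11 higher and 0 lower at that level, against 48.1% of all genes higher and 2.59% higher at that level, and for arrested minus control the median was -0.03 with none at that level. None passed the adjusted threshold (limma; lowest adjusted p 0.322, 0.816 and 0.904 in these 3 comparisons). Gmnn, geminin, which blocks relicensing, was at 8.57, 12.04 and 11.7 FPKM after arrested embryo medium, 15.1, 23.3 and 20.4 after competent embryo medium and 11.2, 9.51 and 6.91 in controls, with all competent libraries highest. Cdc45, a helicase cofactor, was listed at 0 in all libraries except competent libraries 2 and 3, at 6.15 and 7.26 FPKM. Dbf4, the activator of the CDC7 kinase, differed by -0.59 ± 0.25 for arrested minus competent and 0.66 ± 0.25 for competent minus control.

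Ccna2, the cyclin of S phase and G2, was at 1.60, 9.62 and 3.72 FPKM after arrested embryo medium, 11.4, 16.5 and 24.9 after competent embryo medium and 4.96, 5.04 and 3.00 in controls, and Top2a, the topoisomerase that untangles copied DNA, at 5.53, 12.2 and 5.84 FPKM after arrested embryo medium, 15.9, 33.6 and 21.97 after competent embryo medium and 8.59, 11.4 and 3.69 in controls. Asf1b, a histone chaperone of dividing cells, was at 3.02, 7.07 and 1.55 FPKM after arrested embryo medium, 11.95, 16.6 and 13.1 after competent embryo medium and 2.55, 7.36 and 1.16 in controls. These 3 genes had their highest libraries in the competent group, and for each of them arrested library 2 was the highest arrested library. E2f8, a repressing E2F factor, differed by -1.03 ± 0.32 for arrested minus competent, Cdc25a, the phosphatase that activates CDK2, by -0.59 ± 0.24, Pola2, a subunit of the priming polymerase, by -0.52 ± 0.20, and Rpa1, the large subunit of RPA, by -0.67 ± 0.29. In the deoxynucleotide list Dut, which removes dUTP, differed by -0.50 ± 0.27 for the same comparison (unadjusted p 0.104, limma). Its difference was larger for competent minus control, at 0.76 ± 0.27 (unadjusted p 0.023, adjusted p 0.882, limma).

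Of the genes named from these lists, Tk2 and Asf1a stood the other way round. Tk2, the mitochondrial thymidine kinase, was at 14.1, 8.33 and 11.7 FPKM after arrested embryo medium, 10.6, 2.48 and 3.40 after competent embryo medium and 6.73, 10.6 and 12.2 in controls, a difference of 1.11 ± 0.45 for arrested minus competent (adjusted p 0.431, limma). Asf1a, a histone chaperone that is not tied to dividing cells, was at 19.8, 11.5 and 21.98 FPKM after arrested embryo medium, 10.1, 11.6 and 11.03 after competent embryo medium and 9.79, 12.9 and 13.02 in controls, a difference of 0.61 ± 0.24 (adjusted p 0.421). Ssrp1, a subunit of the chaperone FACT, differed by -0.29 ± 0.14.

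Brakes and drivers of the uterine cycle gave no common direction, with 5 of 10 genes higher and 5 lower for arrested minus competent (median -0.01). Among them Esr1 was listed at 0 in 8 of the 9 libraries, Pgr in 6 and Igf1r in 4. A 0 can be a failed estimate, so the directions of these genes, and with them the counts, are uncertain. Cdkn1a, the CDK inhibitor p21, was at 2.98, 4.84 and 5.75 FPKM after arrested embryo medium, 14.2, 11.6 and 11.9 after competent embryo medium and 7.15, 8.24 and 10.4 in controls. Its arrested libraries were below all controls, and its controls below all competent libraries, with differences of -1.32 ± 0.24 for arrested minus competent (adjusted p 0.143, limma) and -0.82 ± 0.24 for arrested minus control (adjusted p 0.904). The inhibitor was highest in the group where the replication genes were highest, but it did not follow them within groups. Its highest libraries were arrested library 3, competent library 1 and control library 3. On FPKM these had the lowest mean deviation of the replication genes in their groups (-0.50, 0.32 and -0.51). The margin was small in the arrested group, where arrested library 1, with the lowest Cdkn1a, stood at -0.48. On exon coverage arrested library 1 was the lowest of its group, at -0.59 against -0.42 in arrested library 3. Igf1, a stromal growth factor of the estradiol response, was at 7.52, 19.4 and 8.49 FPKM after arrested embryo medium, 16.5, 31.6 and 29.8 after competent embryo medium and 13.4, 14.8 and 12.97 in controls, and Klf4, an epithelial transcription factor, at 38.2, 93.6 and 48.9 FPKM after arrested embryo medium, 174, 97.8 and 77.1 after competent embryo medium and 79.3, 95.9 and 144 in controls. Igf1 in arrested library 2 lay among the competent libraries, which were above all controls, and Klf4 overlapped between competent and control libraries.

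Mitosis genes were set beside the replication genes. All 25 mitosis and spindle genes were lower for arrested minus competent (median -1.22, 19 with an unadjusted p under 0.05 against 5.61% of all genes) and all 25 were higher for competent minus control (median 1.36, 21 with an unadjusted p under 0.05 against 2.59% of all genes). Arrested and competent libraries did not overlap for 13 of the 25, against 23 of the 30 replication genes and 8.75% of all genes. The order was the reverse for competent and control libraries, which did not overlap for 21 of the 25, against 18 of the 30 replication genes and 6.72% of all genes. For arrested minus control 12 mitosis genes were higher and 12 lower, with a median of 0.00. Whether mitosis and replication genes differ in these respects was not tested. Plk1, a mitotic kinase, was at 0.521, 4.35 and 0.952 FPKM after arrested embryo medium, 6.05, 8.67 and 13.9 after competent embryo medium and 2.30, 2.07 and 2.12 in controls. Birc5, survivin of the chromosomal passenger complex, was at 3.34, 12.6 and 5.47 FPKM after arrested embryo medium, 15.7, 28.9 and 33.2 after competent embryo medium and 9.61, 7.80 and 4.90 in controls, and Mad2l1, of the spindle checkpoint, at 13.1, 22.7 and 8.27 FPKM after arrested embryo medium, 31.2, 38.9 and 42.99 after competent embryo medium and 22.9, 22.2 and 12.1 in controls. Arrested library 2 was again well above the other 2 arrested libraries for all 3. The promoters of both classes were searched for the same letters. TTTGAA or TTCGAA, forms of the cell cycle homology region (CHR), were in 16 of 22 mitosis genes with a promoter (72.7%), 5 of 27 replication genes (18.5%) and 21.7% of all genes, whereas E2F letters were in 1 of those 22 mitosis genes, Cdk1.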

How the data were processed

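RNA sequencing libraries of whole mouse uterus were analysed, 9 in all and 3 per group, with groups taken from the treatment labels. Per the submitters' processing notes, Bowtie 0.12.2 and Cufflinks were used with mm9. Which Cufflinks version, options and annotation were used is not given in the sources used here. Values per transcript were deposited as FPKM computed by the authors, and the deposited coverage signal is read depth per transcript, not divided by library size. Depth in reads is unknown, and coverage per FPKM was 1.09 to 1.98.

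Annotated transcripts found in all 9 libraries (91479) were assigned to genes by identifier with GENCODE vM1 (NCBIM37), and their FPKM were summed per gene with Python 3.11.15 and pandas 2.3.3. Genes that averaged 1 FPKM or more across all 9 libraries were tested on log2(FPKM + 1), a scale that understates changes of low genes, with limma 3.58.1 in R 4.3.3. A single fit held all 9 libraries, with group means and moderation along the mean (8.07 degrees of freedom in total, of which 2.07 were prior), and Benjamini-Hochberg adjustment ran over all 13333 genes of a comparison with a threshold of 0.05. The filter used the mean over all 9 libraries and no group labels, but a gene can pass it on high values in 1 group. Ccne1 averaged 2.73 FPKM in competent, 0.926 in arrested and 0.884 in control libraries. Cdc45 and the mitosis gene Kif20a were at 0 in all arrested and control libraries. On exon coverage Ccne1 and Pole averaged below 1 in the arrested and control groups. With no filter 30 members were again tested, 29 higher for competent minus control and 30 lower for arrested minus competent. The script was tested on simulated data. Exon coverage was the depth summed over all transcripts on the same strand, averaged over the exons of a gene and divided by the coverage per FPKM of the library.

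The members, the other gene lists and the tests were chosen with earlier results of these data known. Values in every library are given for up to 3 genes per role with the smallest F test p and for genes with a 0. From each list of other genes up to 3 are named by the same p, and Esr1, Pgr and Igf1r for their values of 0. For 1 gene named by that rule no value is reported here. Settings tried were the pseudocount, the filter, scaling, which transcripts were summed, exon coverage, leaving out failed estimates, the spread estimate, the replicate number as a block and each library left out. Treating a 0 as missing where any transcript of the gene had a yes in the last field was added after seeing the data. Promoters came from RefSeq on GRCm38.p6, another build than that of the values, and were joined by gene symbol.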

Additional observations from a re-analysis of the deposited data

Results flagged for a closer look

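Rfc5, a subunit of the clamp loader, carried a signal outside the values compared above. All of its annotated transcripts were listed at 0 in the 9 libraries, yet transcripts assembled within single libraries that share a splice junction with Rfc5 alone read 7.34, 8.09 and 6.20 FPKM after arrested embryo medium, 9.25, 10.9 and 10.8 FPKM after competent embryo medium (mean 10.3) and 8.56, 7.23 and 4.26 FPKM in controls. The competent libraries were the highest here too. Exon coverage, which includes these assembled transcripts, read 4.40, 4.84 and 3.71 FPKM units after arrested embryo medium, 5.54, 6.53 and 6.46 after competent embryo medium and 5.12, 4.33 and 2.55 in controls. Rfc4, listed at 0 throughout as well, had no exon coverage.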

How the results depend on the processing

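The median differences of the members kept their sign in every setting run, between -1.08 and -0.62 for arrested minus competent, 0.42 and 0.77 for competent minus control, and -0.38 and -0.09 for arrested minus control. Signs of single genes were stable for arrested minus competent in all tested genes except Prim1, Pole and Pold1, and for competent minus control except Pole, Pold1, Rpa2 and Dnmt1; for arrested minus control 20 of 30 genes took both signs over the settings. Over all settings the difference for arrested minus competent ran between -0.67 and 0.30 for Pole and between -0.44 and 0.02 for Pold1, and for Prim1 between -0.71 and 0.0011, both over the libraries left out. That for competent minus control ran between -0.10 and 0.52 for Pole, -0.19 and 0.17 for Pold1, -0.13 and 0.45 for Dnmt1, and -0.94 (highest transcript only) and 0.53 for Rpa2. The cause was not tested.

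Members past the adjusted threshold numbered 0, but 1 when only the 6 libraries compared were fitted (Tk1 for competent minus control, Ccne2 for arrested minus competent) and 0 to 1 with a library left out in those comparisons and over any group. In the calls with 6 libraries the group compared with was listed at 0 throughout and has no spread, and so were the arrested and control groups of Tk1 without arrested library 2, so these calls carry no weight. Members with an unadjusted p under 0.05 numbered 19 for competent minus control on exon coverage and 6 to 12 with a library left out. For arrested minus control they numbered 0 with a pseudocount of 5, a mean of at least 5 FPKM, the 6 libraries alone or zeros as missing, and 0 to 5 with a library left out. Genes of the whole table past the threshold for competent minus control, 5 in the main setting, numbered 2 with a pseudocount of 5, 8 with no filter, 2 with assembled transcripts, 0 on exon coverage (limma, adjusted; 875 at an unadjusted p under 0.05), 3 with zeros as missing, 12 with 6 libraries and 4 to 15 with a library left out. For arrested minus control, 6 became 3 with the highest transcript only and 3 with zeros as missing, and 7 to 24 with a library left out. For arrested minus competent, 18 became 11 with the highest transcript only, 61 on exon coverage, 10 without the mean trend, 33 with 6 libraries and 11 to 41 with a library left out. Over any group, 12 became 6 with the highest transcript only and 13 to 35 with a library left out.

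Replicate numbers are shared by the groups. Deviations of same-numbered libraries correlated weakly at most (-0.05 to 0.10), yet 6 of 9 libraries correlated best with a library of their own number. Whether the numbers pair the libraries is not settled. With the replicate number as a block, genes past the threshold numbered 1 for competent minus control, 4 for arrested minus competent and 5 over any group, and members with an unadjusted p under 0.05 for arrested minus control numbered 0. Genes of a few FPKM, such as Cdc6, Ccne1, Ccne2, E2f1 and Mcm10, rest on few reads, and 3 libraries per group estimate the spread imprecisely.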
